A study of Homo sapiens with 6 samples.

Results

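The 10 genes described here are GATA3, FOXA1, SPDEF, GREB1, CA12, AGR2, TFF1, TFF3, MUC1 and AZGP1, of 19775 genes that a probe set of the array names alone. They are genes by which luminal breast epithelium is commonly recognised, joined by AZGP1, and they were chosen with earlier results of the same comparison known, so their own differences are given as a description without a test. They were read by 28 probe sets, of which 20 passed the filter on low signal, and those 20 belong to 8 of the 10 genes. FOXA1 and TFF1 had no probe set above the filter.

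The data come from 6 Affymetrix arrays with 1 RNA sample each. The first group held 3 samples labelled as 231wCFry, a single stable line derived from MDA-MB-231 by transfection with the wild-type 10791 base pair cDNA of COP rat Fry, a scaffold protein that binds NDR-family kinases, in a pEGFP-N1 plasmid. Per the labels it was selected with puromycin and picked because its Fry level was close to that of MCF10A, a mammary epithelial line that is not transformed. The second group held 3 samples of untransfected MDA-MB-231, an established human breast cancer line that is mesenchymal-like and lacks the oestrogen receptor. Both groups were grown in Advanced DMEM with heat-inactivated serum and antibiotics and harvested at 70% confluence. Only 1 clone was used and no empty-vector clone is described. The samples of each line are said to differ in passage number, which is not given for any sample, and separate cultures are not named. The p-values therefore measure only the spread between these samples. The values are MAS5 signals in arbitrary units, and 3 arrays per group limit the precision.

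Luminal cells line the milk ducts, and their identity is held by transcription factors such as GATA3 and FOXA1, which act together with the oestrogen receptor. FOXA1 opens chromatin for the receptor, and GREB1, TFF1 and CA12 are among the genes that oestrogen switches on in breast cancer cells. AGR2, the trefoil peptides TFF1 and TFF3, and MUC1 belong to the secretory and mucin-bearing surface of glandular epithelium. AZGP1 encodes zinc-alpha-2-glycoprotein, a secreted protein with a fold like that of class I histocompatibility molecules, which is made by several glandular tissues including breast and prostate.

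The samples labelled Fry clone stood far from the parental samples across the whole array, with less summed signal from luminal breast markers. Array pairs within a group correlated at 0.992 to 0.995 across probe sets, and pairs between groups at 0.869 to 0.874. The 8 luminal breast markers summed to 1598 to 1694 on the arrays labelled Fry clone and to 6268 to 6936 on the parental arrays. Most of the sum on the arrays labelled Fry clone came from KRT18, at 1457.6 to 1568.5, against 2876.9 to 3212.6 on the parental arrays. Most of the rest of the parental sum came from KRT8, at 1297.2 to 1718.3, and KRT19, at 1623.4 to 1709.9. CDH1 was dim in both groups, at most 8.3 in the samples labelled Fry clone and 13.5 in the parental samples. So was ESR1 on its probe set of highest mean, at most 4.5 and 6.7. Among the 8 markers KRT19 was at background in the samples labelled Fry clone alone, and FOXA1 in both groups. Of 7 basal breast markers 5 could be read. They summed to 1715 to 1994 in the samples labelled Fry clone and to 1724.5 to 2217 in the parental samples, which overlap. Most of both sums came from ITGA6, which overlapped. The basal keratin KRT14 read 109 to 119 in the samples labelled Fry clone and 0.2 to 2.4 in the parental samples. EGFR went the other way, at 33.4 to 42.8 against 310.4 to 464 in the parental samples, as did the dim KRT5 and CDH3. The 7 mesenchymal markers summed to 10974.5 to 12274 in the samples labelled Fry clone and to 7753 to 8744.5 in the parental samples. They did not move together: CDH2, FN1 and SPARC were higher in the samples labelled Fry clone, and VIM and SNAI2 overlapped. ZEB1 was lower there, at 313.6 to 319.8 against 972.1 to 1192.2 in the parental samples. LOX was also lower, at 3.1 to 4.5 against 742.8 to 905.1 in the parental samples. The 9 of 10 melanocyte and neural crest markers that could be read summed to 5899 to 6305 in the samples labelled Fry clone and to 388 to 472 in the parental samples. SOX10, S100B, PAX3, MLANA and TYRP1 were at background in the parental samples, and none of the 9 was on every array labelled Fry clone. TYRP1 was dim on those arrays, at 5.1 to 10.4, below the median signal of each. Most of the parental sum came from MITF, at 353 to 422.8, against 1083.4 to 1203.9 in the samples labelled Fry clone. SOX10 read 1376.1 to 1419.6 there, against 0.2 to 0.8 in the parental samples, whereas PMEL read 3.2 to 8.2 in the samples labelled Fry clone and 4.3 to 14.3 in the parental samples. Markers of prostate, another tissue that makes AZGP1, summed to 15.4 to 23.1 in the samples labelled Fry clone and 15.9 to 26 in the parental samples, where 4 of 7 could be read and the highest signal was 15.6. RNA integrity, read as GAPDH signal near the 3' end over that near the 5' end, was 1.24 to 1.33 in the samples labelled Fry clone and 1.36 to 1.39 in the parental samples. The part of RNA integrity in the differences below was not tested, and transfection with Fry, growth as a clone and another origin of the cells cannot be told apart in this design. Nor can fewer cells that carry a transcript be told apart from less of it per cell.

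Of the 10 genes, the promoters of AZGP1, AGR2, SPDEF and CA12 are shown because the signals of these genes differed most among those for which the table held a sequence. It held 7 of the 10, and GREB1, TFF1 and TFF3 were not among them. Each line gives the 250 bases before the start of the gene from 5′ to 3′ on the strand of the gene, from RefSeq on build GRCh38.p14. The windows are AZGP1 at chr7:99976032-99976281, minus strand, AGR2 at chr7:16805000-16805249, minus strand, SPDEF at chr6:34556330-34556579, minus strand and CA12 at chr15:63381847-63382096, minus strand. Capitals mark matches to any of 5 motifs searched on both strands. The forkhead motif was TGTTTAC or TATTTAC. For factors of the GATA family it was AGATAA or TGATAA. The oestrogen response half-site was GGTCA. For SOX factors it was ACAAAG or ACAATG, and the E-box was CACGTG or CATGTG. No matches overlapped in the windows shown.
AZGP1: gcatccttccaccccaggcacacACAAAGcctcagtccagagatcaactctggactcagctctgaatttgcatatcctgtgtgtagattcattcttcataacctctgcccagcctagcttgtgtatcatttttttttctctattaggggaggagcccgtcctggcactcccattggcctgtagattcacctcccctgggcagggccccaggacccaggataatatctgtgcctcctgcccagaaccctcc
AGR2: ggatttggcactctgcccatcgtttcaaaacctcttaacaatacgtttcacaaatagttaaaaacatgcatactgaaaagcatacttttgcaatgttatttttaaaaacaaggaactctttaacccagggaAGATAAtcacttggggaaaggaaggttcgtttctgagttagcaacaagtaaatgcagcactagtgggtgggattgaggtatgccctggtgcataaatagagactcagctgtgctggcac
SPDEF: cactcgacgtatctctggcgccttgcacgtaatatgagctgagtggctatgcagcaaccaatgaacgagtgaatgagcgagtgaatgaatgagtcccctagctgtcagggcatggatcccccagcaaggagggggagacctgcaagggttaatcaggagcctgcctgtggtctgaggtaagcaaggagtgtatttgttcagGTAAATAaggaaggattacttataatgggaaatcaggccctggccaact
CA12: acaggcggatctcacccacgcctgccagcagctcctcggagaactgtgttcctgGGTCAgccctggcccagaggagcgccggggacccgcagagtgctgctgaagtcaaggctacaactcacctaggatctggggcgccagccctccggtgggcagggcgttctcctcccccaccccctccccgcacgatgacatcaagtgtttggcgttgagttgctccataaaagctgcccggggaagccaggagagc

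Each of these windows held a single match, and each match was to a different motif. The AZGP1 window held ACAAAG, a SOX motif that 21.2% of 35116 promoter windows of the same length also held. AGR2 had AGATAA, and a GATA motif was found in 14.6% of windows. SPDEF had GTAAATA, the forkhead motif read on the other strand, which 5.27% of windows held. CA12 had GGTCA, found in 32.6% of windows, and an E-box, absent from all 4 printed windows, was in 15.2%. The motifs were chosen after the expression values had been seen. A match describes letters only and is neither a bound site nor a cause of a change in signal.

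Each gene was first read by its leading probe set, the one with the highest mean signal. Of the 10 genes, 2 were at least 2-fold higher and 3 at least 2-fold lower in the samples labelled Fry clone, with no overlap between the groups. AZGP1 and GREB1 were higher, and AGR2, SPDEF and CA12 were lower. By the same rule 12.3% of the 13630 genes tested were higher and 10.8% lower, and since the genes were chosen on this comparison nothing is read from the difference between those shares. Over all 28 probe sets, 2 were apart and at least 2-fold higher, 10 apart and at least 2-fold lower, and 16 were neither. Regardless of size, the groups did not overlap on 2 probe sets that were higher and 14 that were lower, beside 37.0% of genes tested that were higher and 36.1% lower by that rule. These are unlike units, since the shares count the leading probe set of each gene tested and the 28 include probe sets below the filter. Of the 14, SPDEF and CA12 gave 5 each, and a FOXA1 probe set among them was at background in both groups. Throughout, a difference is the mean of the samples labelled Fry clone minus that of the parental samples on log2(signal + 16), where 16 is added to steady the values of dim probe sets. Its standard error comes from limma.

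**Figure D1:**
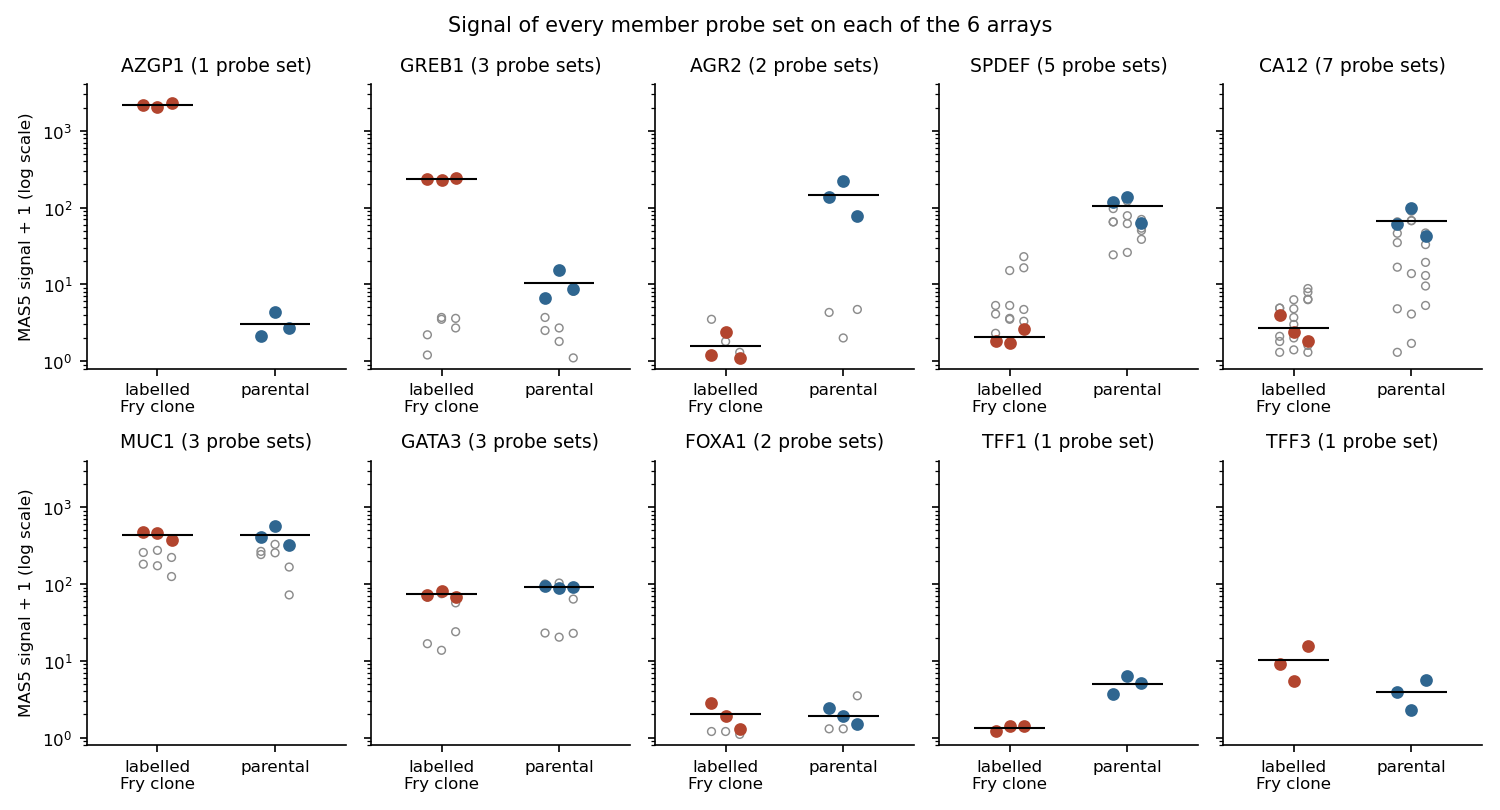
Signal of all 28 probe sets of the 10 genes on each array, with the MAS5 signal plus 1 on a log axis. Filled points are the probe set with the highest mean of each gene, the black line is its group mean, and open grey points are its other probe sets. AZGP1 and GREB1 lie higher in the samples labelled Fry clone, AGR2, SPDEF and CA12 lie lower, and MUC1 overlaps.

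Among the regulators, GATA3, the zinc finger factor that specifies luminal cells, was read by 3 probe sets. The one with the highest mean read 70.2, 78.9 and 67.0 in the samples labelled Fry clone, against 93.4, 88.0 and 90.8 in the parental samples. The groups did not overlap, but the difference was only -0.28 (SE 0.08). The second probe set read 66.6, 73.8 and 55.8 in the samples labelled Fry clone, against 99.1, 102 and 62.6 in the parental samples, where the third sample fell inside the range of the other group. The remaining, dimmer probe set also overlapped, at 12.7 to 22.9 in the samples labelled Fry clone and 19.3 to 22 in the parental samples.

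FOXA1, the pioneer factor of the oestrogen receptor, was at background in both groups. A signal is called at background here where it lay at or below the highest of 27 unspiked bacterial control probe sets on every array of a group, a level of 2.5 to 4.9 over the arrays. The 2 FOXA1 probe sets read at most 1.8 in the samples labelled Fry clone and at most 2.5 in the parental samples, so neither level nor direction can be given.

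SPDEF, an ETS-family factor that in mouse drives the secretory differentiation of goblet cells, was lower on all 5 of its probe sets. The leading probe set read 0.8, 0.7 and 1.6 in the samples labelled Fry clone, which is at background, against 117, 135 and 61.4 in the parental samples. That makes it at least 28.1-fold lower against the control level, or at least 9.12-fold if the median signal of each array is taken as the floor. The other SPDEF probe sets were apart as well, with differences of -1.25 to -2.35. Their lowest parental signal was 23.2, and their highest signal in the samples labelled Fry clone was 21.9, on the third of those arrays. All 5 are of a type that may cross-hybridise with related sequences.

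GREB1, an oestrogen-induced coregulator of the oestrogen receptor, was higher on the 1 of its 3 probe sets that carried signal. This probe set read 235, 227 and 242 in the samples labelled Fry clone, against 5.7, 14.4 and 7.7 in the parental samples. The arrays labelled Fry clone lay close together (235 ± 7.90, SD, n = 3), and the difference was 3.32 (SE 0.12), larger in size than that of 96.8% of the genes tested. The other GREB1 probe sets stayed at 0.2 to 2.7 in the samples labelled Fry clone and at 0.1 to 7.1 in the parental samples. GREB1 is commonly read as a sign of oestrogen receptor activity, so the receptor was examined beside it. The 9 probe sets of ESR1, which encodes that receptor, read at most 7.4 in the samples labelled Fry clone and 6.7 in the parental samples. Both of those of PGR, the progesterone receptor, read at most 1.7 in the samples labelled Fry clone and 2.5 in the parental samples. These signals lay below the median of every array (10.4 to 12.1), and none of these probe sets passed the filter.

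CA12, a carbonic anhydrase of the outer cell membrane, was lower on 5 of 7 probe sets. The leading probe set read 3.0, 1.4 and 0.8 in the samples labelled Fry clone, at background, against 60.6, 97.9 and 41.4 in the parental samples, at least 17.8-fold lower, or at least 5.76-fold with the median signal as the floor. A probe set not of the cross-hybridising type gave a similar picture. It read 1.1, 2.0 and 0.6 in the samples labelled Fry clone, against 64.1, 88.6 and 31.9 in the parental samples, at least 16.1-fold lower, or at least 5.21-fold with the median signal as the floor. A further 2 of the probe sets had differences of -1.73 and -1.66, and a dim one had -0.50. The remaining 2 overlapped and read at most 7.8 in the samples labelled Fry clone and 8.5 in the parental samples, under the median of every array.

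AGR2, a protein disulfide isomerase of the endoplasmic reticulum that helps fold mucins, had the largest difference downward of the 10 genes. Its bright probe set read 0.2, 1.4 and 0.1 in the samples labelled Fry clone, at background, against 135, 223 and 76.0 in the parental samples. Every parental array lay far above every array of the other group, and the signal was at least 37.4-fold lower in the samples labelled Fry clone, or at least 12.1-fold with the median signal as the floor. The difference of -3.17 (SE 0.30) was larger in size than that of 96.4% of the genes tested. Its other probe set read at most 2.5 in the samples labelled Fry clone and 3.7 in the parental samples.

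The trefoil peptides, small secreted proteins that protect mucous surfaces, were at or near background. TFF1 read 0.2, 0.4 and 0.4 in the samples labelled Fry clone, against 2.7, 5.3 and 4.1 in the parental samples. The parental values lay just above the control level of their arrays and below the median signal there, so the fold has a lower bound barely above 1. TFF3 read 8.2, 4.5 and 14.6 in the samples labelled Fry clone, against 2.9, 1.3 and 4.6 in the parental samples. These ranges just overlapped. Only the 14.6 exceeded the median signal of its array (11.2).

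MUC1, a transmembrane mucin of the luminal surface, was bright in both groups and overlapped on all 3 probe sets. The leading probe set read 479.6, 467.6 and 369.5 in the samples labelled Fry clone, against 411, 576 and 317 in the parental samples. Its difference was 0.04 (SE 0.20), and those of the other probe sets were 0.07 (SE 0.21) and -0.12 (SE 0.42). All 3 fell between the lowest and highest parental sample in each array labelled Fry clone, so no change was detectable at this spread, which does not show that the levels were equal.

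AZGP1 had the second largest upward difference of all 13630 genes tested. Its single probe set read 2174, 2024 and 2274 in the samples labelled Fry clone, against 1.1, 3.3 and 1.7 in the parental samples. The parental samples were at background, and the signal was at least 629-fold higher, or at least 194-fold with the median signal as the floor. The difference was 6.91 (SE 0.08). The arrays labelled Fry clone differed among themselves by 1.12-fold at most. The probe set that names only the pseudogene AZGP1P1 read at most 3.6 in the samples labelled Fry clone and 3.4 in the parental samples.

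**Figure D2:**
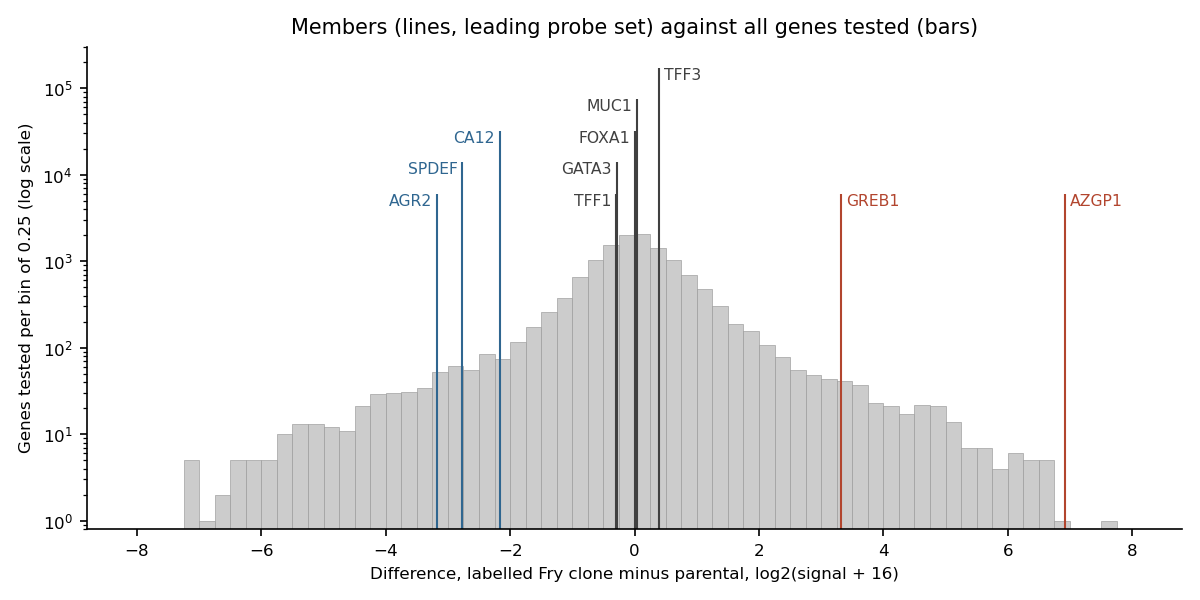
Difference on log2(signal + 16), labelled Fry clone minus parental, for all 13630 genes tested (grey bars, number of genes per bin of 0.25 on a log axis) and for the 10 genes (lines, probe set with the highest mean). AZGP1 at 6.91 is near the right end, AGR2 at -3.17 lies in the left tail, and MUC1, GATA3, FOXA1, TFF1 and TFF3 lie within 1 of zero.

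The genes whose signals were most like those of AZGP1 over the 6 arrays were found by the Euclidean distance of log2(signal + 16) to each of the other 13629 genes tested. The nearest 5 were OVAAL, a long noncoding RNA, at a distance of 0.52, CNRIP1, which binds the cannabinoid receptor, at 0.53, SCRG1 at 0.56, S100B, a calcium-binding protein of glia and melanocytes, at 0.61, and SYTL5, a synaptotagmin-like protein, at 0.62. Like AZGP1 they were near 0 in one group: S100B averaged 1770.1 ± 93.3 in the samples labelled Fry clone and 0.70 ± 0.87 in the parental samples (SD, n = 3 each). None of these 5 is on the luminal lists used here. The nearest to AGR2 were GBP4, a guanylate-binding protein, at 0.54, TNS4, a tensin of focal adhesions, at 0.56, WT1 at 0.63, MAL2, a protein of apical transport, at 0.64 and CCNA1 at 0.64. TNS4 averaged 1.63 ± 0.76 in the samples labelled Fry clone and 169 ± 70.7 in the parental samples. The measure rests on 6 arrays in only 2 groups.

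Among the parental samples, 4 of the 10 genes had the same order of signal. AGR2, SPDEF, CA12 and MUC1 each read highest in the second parental sample and lowest in the third, by 2.94-fold, 2.20-fold, 2.36-fold and 1.82-fold on their leading probe sets. Such an order with a spread of at least 1.5-fold was found in 3.72% of the 13630 genes tested. The order was taken from the values of these genes themselves, so nothing is read from its distance to that share. Probe sets of the same gene are also not independent. Of the 17 probe sets of the 10 genes with a parental mean above the median signal of every array, 10 had this order, and 9 of these with at least 1.5-fold between the samples. Those in this order included the second GATA3 probe set, at 1.63-fold. The 7 exceptions were the leading and the dimmest GATA3 probe set, at 1.06-fold and 1.14-fold, 2 probe sets of SPDEF, 2 of CA12 and 1 of MUC1, which read 265, 253.8 and 71.1 in the parental samples.

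On log2(signal + 16) the parental SD of the leading probe set was 0.69 for AGR2, 0.51 for SPDEF, 0.50 for CA12 and 0.42 for MUC1. It differed between probe sets of a gene. For GATA3 it was 0.04 on the leading and 0.33 on the second probe set, for SPDEF it was 0.16 to 0.51, for CA12 it was 0.09 to 0.63 over the 5 above the median signal, and for MUC1 it was 0.42 to 0.96. In the samples labelled Fry clone the SD of the leading MUC1 probe set was 0.20, and the leading probe sets of AGR2, SPDEF and CA12 were at background. The MUC1 signal spanned 369.5 to 479.6 in the samples labelled Fry clone, inside the parental span of 317 to 576. No label gives the passage of any sample, and the part of passage in this spread was not tested.

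**Figure D3:**
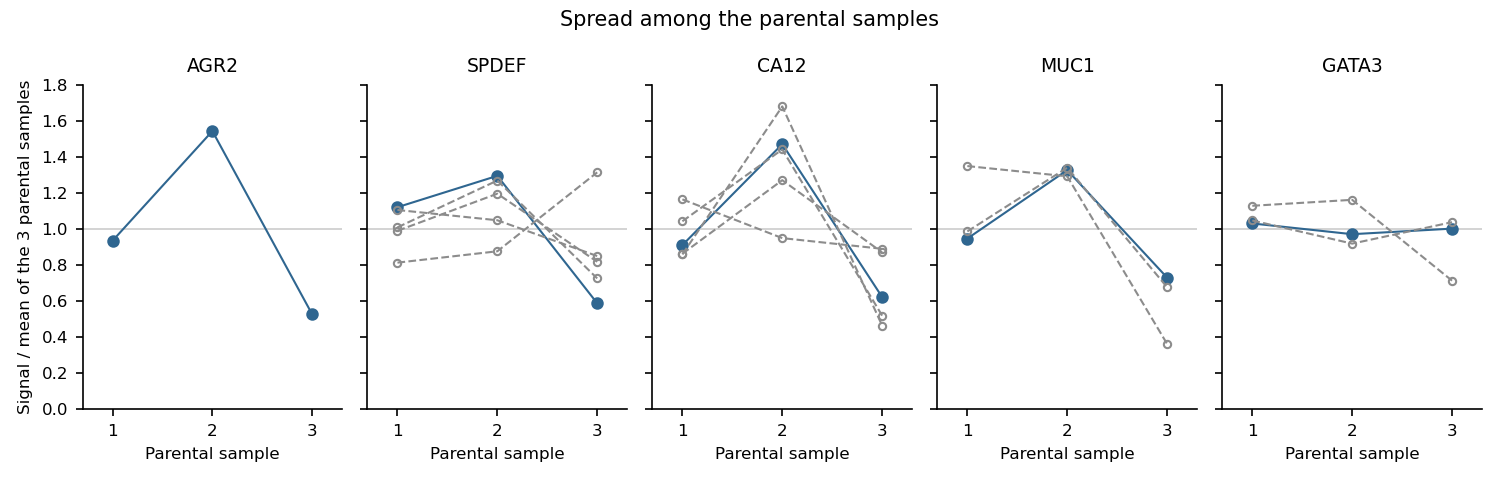
Signal of each probe set in the 3 parental samples divided by its mean over them, for the 17 probe sets with a parental mean above the median signal of every array. Blue filled points are the leading probe set of each gene, grey open points the others, and lines join the values of 1 probe set. AGR2, CA12 and MUC1 are highest in sample 2 and lowest in sample 3 on their leading probe sets, while that of GATA3 stays near 1 and the second GATA3 probe set is lowest in sample 3.

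Around these genes, 5 further lists were read, and here limma's test applies, with p-values adjusted over all probe sets tested. Over all genes tested, 34.1% were called higher and 33.1% lower, and the median difference was 0.0082. With so many genes called, a list is read against these shares. Of 11 tested luminal regulators 6 rose, 3 fell and 2 did not pass, with a median of 0.75. TBX3, a T-box repressor of mammary development, rose to 542 ± 28.8 in the samples labelled Fry clone, against 4.87 ± 2.93 in the parental samples (SD, n = 3 each). TFAP2C, an AP-2 factor that supports oestrogen receptor expression, rose to 2527 ± 252, against 549.9 ± 64.9 in the parental samples, and the transcriptional coactivator CITED1 to 291 ± 75.6, against 28.0 ± 6.41. The GATA-type repressor TRPS1 rose as well, to 212 ± 25.3, against 59.5 ± 9.10 in the parental samples. EHF, an epithelial ETS factor, fell to 87.6 ± 12.6, against 740.1 ± 116 in the parental samples, and all 5 of its other tested probe sets fell. ZNF703 fell to 393 ± 51.0, against 1325 ± 177, and the histone demethylase KDM4B to 228 ± 23.3, against 398 ± 21.3 in the parental samples. For KDM4B only 2 of 4 other tested probe sets fell, and the rest did not pass. The adjusted p of these genes was at most 1.38e-04 (limma). TBX3 and CITED1 are also expressed in melanocytes, and the summed melanocyte and neural crest markers given above were higher in the same samples; their part in these rises was not tested. Without the second parental sample 5 luminal regulators fell.

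Oestrogen-responsive genes other than GREB1, CA12 and TFF1 went in both directions: of 19 tested, 3 rose, 8 fell and 8 did not pass, with a median of -0.21. STC2, a secreted glycoprotein, rose to 1590.2 ± 32.9 in the samples labelled Fry clone, against 9.03 ± 1.85 in the parental samples, and the ubiquitin ligase SIAH2 to 221 ± 7.82, against a parental 112 ± 5.33. IGFBP4, which binds insulin-like growth factors, fell to 3.37 ± 0.85, against 2851 ± 164 in the parental samples. SUSD3, a membrane protein, fell to background and was at least 36.1-fold lower. FBP1, an enzyme of gluconeogenesis, fell to 3.10 ± 1.51, against 279 ± 21.7 in the parental samples, and the survival factor BCL2 to 34.6 ± 8.19, against 135 ± 26.6. These genes had an adjusted p of at most 1.80e-05 (limma). The other tested probe set of BCL2 did not pass. GREB1 was higher in the samples labelled Fry clone. Of the 19 list genes tested, 3 rose and 8 fell, beside 34.1% higher and 33.1% lower of all genes tested. With a filter at the 60th percentile 5 genes of the list fell.

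Surface and secreted genes of luminal cells were read beside AGR2, the trefoil peptides and MUC1. Of 17 tested, 3 rose, 11 fell and 3 did not pass, with a median of -0.98. These counts stand beside 34.1% higher and 33.1% lower of all genes tested. The keratin KRT19 fell to background and was at least 474-fold lower, and KRT8 fell to 44.7 ± 3.28 in the samples labelled Fry clone, against 1543 ± 219 in the parental samples. The adhesion molecule EPCAM fell to 4.60 ± 2.29, against 234 ± 31.7, and the surface sialoglycoprotein CD24 to 5.73 ± 2.80, against 132 ± 29.4 in the parental samples. ERBB2, the receptor HER2, fell to 100.0 ± 5.36, against 289.8 ± 23.5 in the parental samples, whereas its partner ERBB3 rose to 816 ± 55.8, against 20.2 ± 6.05 in the parental samples. SYTL2, a Rab27 effector in vesicle transport, also rose, to 979 ± 29.7, against 55.6 ± 3.61. The adjusted p was at most 1.56e-06 (limma). The other tested probe set of ERBB2 did not pass. A further 13 genes of this list did not pass the filter, among them the mammaglobin gene SCGB2A2, the AGR2 paralog AGR3 and PIP, a glandular secretory protein whose product is known to bind that of AZGP1. ERBB3 is also a marker on the melanocyte and neural crest list. Without probe sets of types that may cross-hybridise, 5 genes of this list fell and 2 rose. KRT8, EPCAM, CD24, ERBB2 and SYTL2 had no tested probe set of another type, so they were not tested in that run.

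Androgen-responsive genes were read because AZGP1 is one of them in prostate. Of 10 tested, 4 rose, 4 fell and 2 did not pass, with a median of -0.05. Of all genes tested, 34.1% were called higher and 33.1% lower. TRPM8, a cold-sensing ion channel, rose to 487 ± 80.6 in the samples labelled Fry clone, against 2.43 ± 2.36 in the parental samples, and the stress gene NDRG1 to 1735 ± 17.9, against 882 ± 116. ZBTB10 rose to 238 ± 19.2, against 149 ± 13.1, and the transporter ABCC4 to 627 ± 63.3, against 452 ± 21.7 in the parental samples. The immunophilin FKBP5 fell to 1078 ± 32.7, against 1495 ± 48.0, and PMEPA1 to 1424 ± 62.4, against 1938 ± 306 in the parental samples. The adjusted p was at most 0.011 (limma). Of the other tested probe sets, 1 of 2 passed for FKBP5 and 3 of 5 for ZBTB10, each in the same direction.

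Close relatives of the 10 genes did not move as a block. Of 13 tested paralogs 6 rose, 6 fell and 1 did not pass, with a median of -0.09. All genes tested also went both ways, 34.1% higher and 33.1% lower, so the split is not read as particular to the paralogs. Where GATA3 differed little, GATA2 rose to 190.4 ± 32.8 in the samples labelled Fry clone, against 106 ± 5.72 in the parental samples, and GATA6 fell to 242 ± 6.82, against 612 ± 16.4. FOXA2, the relative of FOXA1 in endoderm, was readable in the parental samples at 110.2 ± 20.0 and fell to background, at least 31.0-fold lower in the samples labelled Fry clone. The carbonic anhydrase CA13 rose to 306 ± 26.1, against 144 ± 7.97 in the parental samples. TXNDC12, a relative of AGR2 in the endoplasmic reticulum, rose to 1237 ± 11.7, against 919.9 ± 21.9, and the ETS factor ELF1 to 311 ± 19.6, against 229.9 ± 11.0 in the parental samples. These genes had an adjusted p of at most 0.0033 (limma), and EHF, given above, was also on this list. The other tested probe set of CA13 and that of ELF1 did not pass, and for GATA2 1 of 2 passed, in the same direction. With a filter at the 60th percentile 3 paralogs fell.

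**Figure D4:**
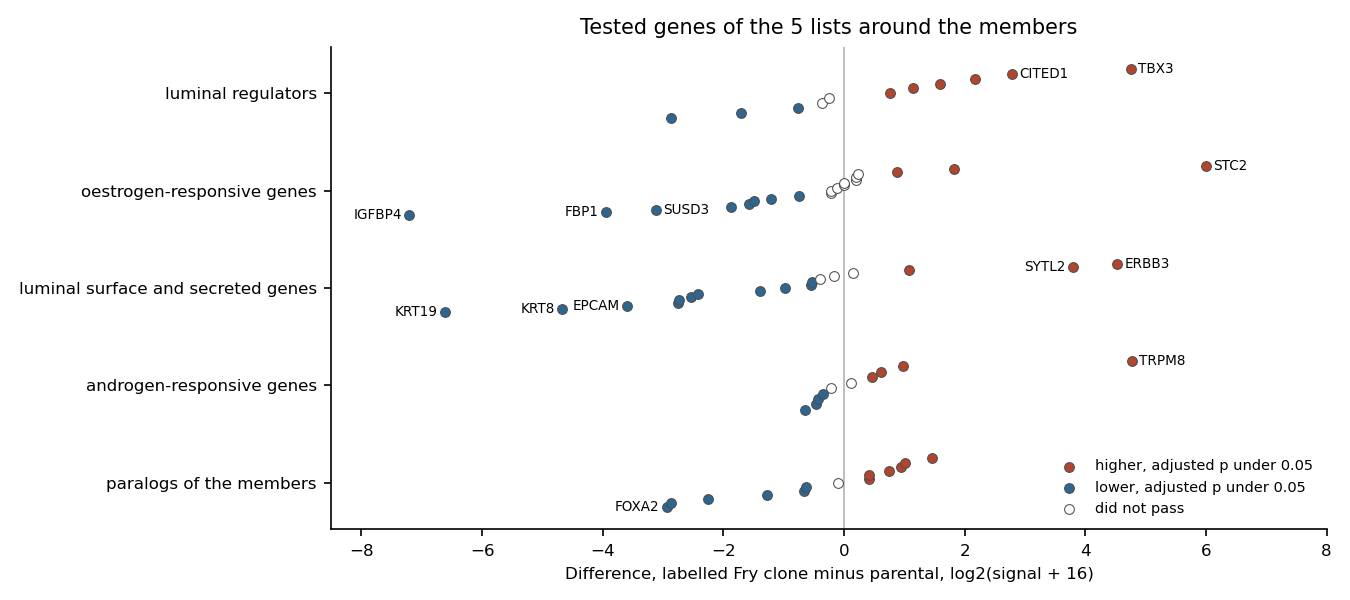
Difference on log2(signal + 16), labelled Fry clone minus parental, of each tested gene of 5 lists around the 10 genes. Red points were higher and blue points lower at an adjusted p under 0.05 (limma), and white points did not pass. Luminal regulators run from EHF to TBX3, and the surface and secreted genes, 11 of 17 of them lower, reach down to KRT19.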

How the data were processed

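Total RNA was amplified from 40 ng per sample and labelled with biotin, per the labels' protocols. The deposited signal is a linear intensity per probe set. MAS5 is the tool that the submitters' processing notes name for this intensity, without a version or scaling target. The values show a common mean on every array after 2% of probe sets are trimmed at each end. No detection calls were used. MAS5 subtracts mismatch signal, so ratios of dim probe sets are unstable.

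Control probe sets aside, 41091 of 54613 named 1 gene in GEO's platform annotation, 1801 several and 11721 none; only the first were named. Of these, 41037 matched the RefSeq gene table of GRCh38.p14, which changed 0 symbols. Probe sets whose mean signal was at or above the 40th percentile (5.87) were tested on log2(signal + 16) with limma 3.58.1 in R 4.3.3, with all 6 arrays, no covariates and Benjamini-Hochberg adjustment over 32771 probe sets at 0.05. Each gene took the probe set of highest mean signal, unless all probe sets are given. The members and lists were chosen with earlier results of these data known. In each list up to 4 called genes per direction, by size of difference, whose higher group reached the median of tested probe sets (88.2) were named, with ESR1, PGR and ERBB2. The fit was tested on simulated data. Alternatives changed the pseudocount, filter, normalization, probe sets, block and samples. Plots used matplotlib 3.10.9 under Python 3.11.15. Arrays of a group held equal values in at most 2.15% of probe sets.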

Additional observations from a re-analysis of the deposited data

How the results depend on the processing

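Of the counts in the report, those over all genes tested stayed within 1.5 times of their value under every alternative run. Without probe sets of types that may cross-hybridise, 5 surface and secreted genes fell, against 11. That run tested 10729 genes, against 13630, and genes read only by such probe sets left the test. With a filter at the 60th percentile, which leaves fewer genes tested, 5 oestrogen-responsive genes fell, against 8, and 3 paralogs, against 6. With the mean of a gene's probe sets 5 luminal regulators fell, against 3, and with each sample left out in turn 3 to 5 fell, the higher value without the second parental sample; the cause was not tested. The 440 repeats of the named list genes kept their direction and their side of the threshold. Of the repeats for probe sets of the 10 genes, 315 stayed within the spread between samples and 35 moved beyond it, the 35 all with a pseudocount of 1 or 64 and none with a change of sign. With these AZGP1 differed by 5.07 to 9.54 and AGR2 by -6.50 to -1.63. With a pseudocount of 64 CA12 was at -0.97, so 2 in place of 3 of the genes were at least 2-fold lower; the count was also 2 without cross-hybridising types, since SPDEF has no other. The replicate numbers were not used to pair the samples in the main fit. Deviations of samples with the same number correlated at 0.07, 0.07 and 0.19, and those with unlike numbers at -0.13 to 0.08. Not every sample matched its own number best. Such weak correlations over 3 samples per group cannot settle whether the samples were paired. With a replicate block 4673 genes were higher and 4537 lower. The fit cannot settle changes of probe sets near background in either group.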
